A study of Homo sapiens with 2 samples.

Results

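Histone genes encode the proteins around which DNA is wound. To examine how their transcripts compared after a brief treatment with the plant alkaloid berberine, every gene of the array annotation was taken whose older symbol begins with HIST1H to HIST4H, or with H1F, H2AF, H2BF or H3F. The choice rested on names and used no measured value, though earlier results of these data were known when it was made. It gave 88 genes of the 20039 with a named probe, covered by 106 of 47231 probes. Of these genes, 70 with a HIST name were taken as replication-dependent, most of them in the histone clusters of chromosomes 6 and 1. The other 18 were taken as variant genes, 2 of which (H3P6 and H2BW4P) are annotated as pseudogenes. The class rests on the name alone, not on where a gene is expressed or how its mRNA ends.

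HepG2, an established human hepatoma line, received 40 µM berberine chloride in one group and the vehicle, 0.08% DMSO, in the other, each for 4 h. Total RNA of each was hybridized to 1 Illumina HumanHT-12 v4 BeadChip, so there were no replicates, no test between the groups was possible, and every difference below compares these 2 arrays. In a bulk RNA sample, fewer cells expressing a gene and less of its RNA per cell cannot be told apart.

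An octamer of core histones H2A, H2B, H3 and H4 forms the nucleosome, and the linker histone H1 binds where DNA enters and leaves it. Replication-dependent histone genes are transcribed mainly in S phase, when new DNA must be packaged, and their mRNAs usually end in a conserved stem-loop rather than a poly(A) tail. Many variant genes, such as H2AZ1 and H3-3A, are expressed throughout the cell cycle as polyadenylated mRNAs, and their products replace core histones at particular places in chromatin. The biotinylated cRNA of these arrays came from an Ambion MessageAmp kit per the labels, while the study's methods name an Ambion RT-IVT kit and the Illumina TotalPrep kit. MessageAmp and TotalPrep kits prime with oligo(dT). A transcript without a poly(A) tail is poorly copied by such priming, although some cluster genes also make polyadenylated forms.

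The stretches before 4 histone genes are shown with the promoter elements counted below, and of these the octamer core is in the replication-dependent windows shown and in neither of the variant ones. The variant H2AX was the measured histone gene with the lowest difference, and H2AZ1 is a variant with a difference near 0. H2BC12 and H2AC20 are replication-dependent genes, and H2AC20 starts 236 bases from the oppositely transcribed H2BC21, so that this pair shares most of its window. Each sequence is the 250 bases before the RefSeq start of the gene (build GRCh38.p14), 5′ to 3′ on the gene's strand. They lie at chr11:119095466-119095715 (minus strand, H2AX), chr4:99950276-99950525 (minus strand, H2AZ1), chr6:27146859-27147108 (minus strand, H2BC12) and chr1:149886668-149886917 (plus strand, H2AC20). Capitals mark every match, on either strand, to the TATA box TATAAA, to CCAAT, which is bound by the factor NF-Y, or to ATTTGCA, the core of the octamer element bound by OCT1.
H2AX: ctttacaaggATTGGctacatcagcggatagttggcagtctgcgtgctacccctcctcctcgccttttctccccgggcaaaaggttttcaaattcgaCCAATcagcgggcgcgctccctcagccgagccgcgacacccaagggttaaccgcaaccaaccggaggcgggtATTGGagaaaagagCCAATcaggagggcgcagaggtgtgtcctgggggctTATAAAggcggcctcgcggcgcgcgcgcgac
H2AZ1: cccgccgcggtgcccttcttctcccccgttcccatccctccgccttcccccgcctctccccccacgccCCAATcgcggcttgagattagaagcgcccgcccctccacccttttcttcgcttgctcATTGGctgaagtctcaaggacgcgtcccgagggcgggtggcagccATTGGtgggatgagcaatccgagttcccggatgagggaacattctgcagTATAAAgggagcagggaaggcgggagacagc
H2BC12: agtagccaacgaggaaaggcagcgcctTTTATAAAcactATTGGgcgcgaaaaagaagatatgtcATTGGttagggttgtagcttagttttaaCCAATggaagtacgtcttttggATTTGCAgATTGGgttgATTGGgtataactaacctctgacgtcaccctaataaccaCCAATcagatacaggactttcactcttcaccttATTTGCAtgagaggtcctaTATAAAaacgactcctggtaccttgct
H2AC20: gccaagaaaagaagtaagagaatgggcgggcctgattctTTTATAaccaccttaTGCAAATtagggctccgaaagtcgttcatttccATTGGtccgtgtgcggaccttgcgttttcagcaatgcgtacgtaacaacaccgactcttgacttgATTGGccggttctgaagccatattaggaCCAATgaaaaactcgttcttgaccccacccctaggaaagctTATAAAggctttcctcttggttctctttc

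In these windows the sense TATA box begins 31 bases before the start in H2AX and H2AZ1, 27 in H2BC12 and 29 in H2AC20. All 4 hold several copies of CCAAT. A sense TATA box is thus present in both variant windows shown, although most variant windows lack one. Over the histone genes as a whole, 80 of 88 matched a RefSeq window of 250 bases before to 50 after the start. The 8 without one were H2AC12, H2BW4P, H3-5, H3C11, H3C12, H3P6, H4C1 and H4C3.

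TATAAA was found on either strand in 66.2% of 65 replication-dependent windows and 26.7% of 15 variant windows, against 12% of the windows of 27305 genes. A sense TATA box lay 25 to 36 bases before the start in 35 of the 65 and in 4 of the 15. CCAAT was found in 84.6% of replication-dependent and 80.0% of variant windows, against 35.7% of all. For the octamer core the shares were 41.5%, 6.67% and 4.23%. The windows also differed in base composition, with a median GC content of 43.3% for replication-dependent genes, 61% for variants and 58.3% for all. How far composition bears on these shares was not tested. The families differed in these letters. Among replication-dependent genes the octamer core was in 77.8% of 18 H2B and 68.8% of 16 H2A windows, in 16.7% of 12 H3 windows and in 0 of the 6 H1 and 13 H4 windows. Of the H3 windows with a match, that of H3C4 has the same coordinates as the window of the H2A gene H2AC7, and the H3C3 match lies 22 bases after the start. In the same class CCAAT was in every window of the H1, H2A, H2B and H3 families and in 23.1% of those of the H4 family. Measured and unmeasured replication-dependent genes had like shares for 2 of the motifs, with TATAAA in 66.7% of 12 and 66.0% of 53 windows and the octamer core in 41.7% and 41.5%, while CCAAT was in 75.0% and 86.8%. Windows of near-identical copies and of divergent pairs share sequence, so these shares are not over independent promoters, and a match is a description of the letters only.

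**Figure D1:**
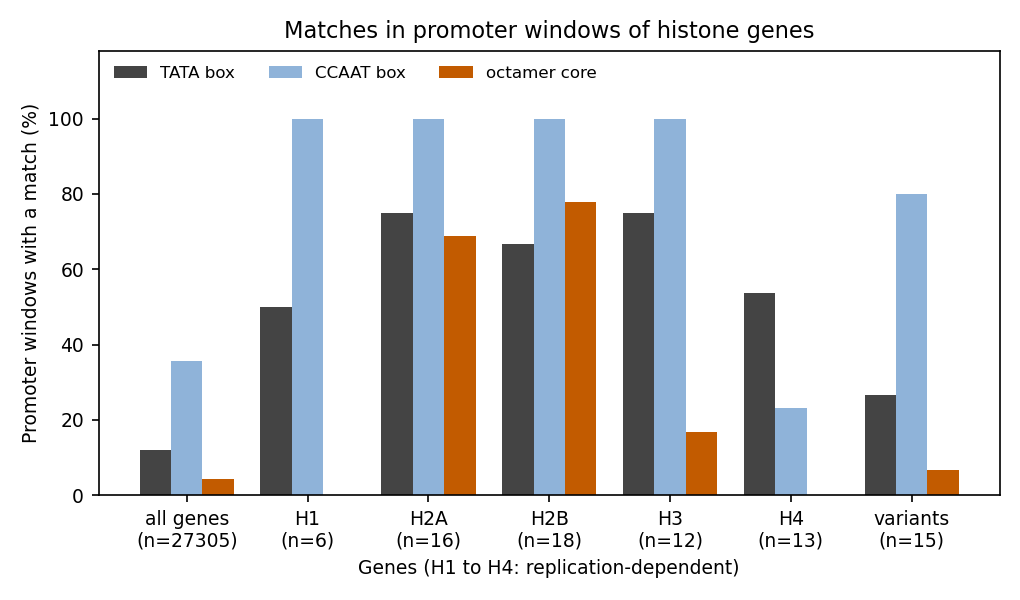
Share of RefSeq promoter windows (vertical axis, percent) with at least 1 match on either strand to the TATA box, the CCAAT box or the octamer core, for all genes, the replication-dependent histone genes by family and the variant histone genes (horizontal axis, with the number of windows). The octamer bars stand at 68.8% and 77.8% for H2A and H2B and at 0 for H1 and H4.

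Most replication-dependent histone genes were not detected. A probe counted as detected at a detection p under 0.01, which compares it with the negative-control beads of the array, and a gene as measured where both arrays detected the same probe. Of the 88 histone genes, 24 (27.3%) were measured, against 9128 of 20039 (45.6%) over all genes. The classes differed, with 13 of 70 replication-dependent genes (18.6%) and 11 of 18 variant genes (61.1%) measured. By family, 1 of 6 replication-dependent H1 genes, 3 of 17 H2A, 4 of 18 H2B, 1 of 14 H3 and 4 of 15 H4 genes were measured. Among the variants these were 1 of 3 H1 genes, 6 of 9 H2A genes, 0 of 2 H2B genes and 4 of 4 H3 genes.

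The 7 variant genes detected on neither array were H1-7, H1-8, H2AB1, H2AB2, H2AB3, H2BW1 and H2BW4P, most of which are known from the germ line. The 68 probes of all 62 undetected histone genes had intensities of 94.3 to 138 (median 116) in control, and up to 144 (median 123) in berberine-treated cells. The lowest intensity of any detected probe was 142 in control and 152 after berberine treatment. An undetected transcript may have been absent or scarce, or poorly copied for lack of a poly(A) tail, and these arrays do not tell these apart. Among replication-dependent genes the median span in RefSeq was 494 bases for measured and 496 for undetected ones. Of the 8 with a span over 1000 bases, 3 were measured (37.5%), and of the 62 with a shorter span, 10 were (16.1%). By chromosome, only the 65 replication-dependent genes with a promoter window were counted. Of these, 7 of 50 on chromosome 6 and 5 of 14 on chromosome 1 were measured. The measured gene H4C3 has no such window and is not in these counts.

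The same genes were detected on both arrays with 2 exceptions. Of 26 histone genes detected on at least 1 array 24 were measured, against 9128 of 9873 over all genes. These shares are near each other, so the 2 exceptions are no result about the histone genes. The H2BC11 probe, for an H2B, read 125 units in control and 160 in berberine-treated cells, at detection values of 0.0779 and 0.0039. The H3C7 probe, for an H3, read 139 and 156 units, at detection values of 0.0143 and 0.00649. Both were thus above the detection threshold after berberine treatment only, by a small margin. Against the lowest detected signal of the control array H2BC11 was at least 1.18-fold and H3C7 at least 1.08-fold higher on the background-corrected scale. With the deposited normalized intensity these bounds were 1.06-fold and 1.03-fold. No histone gene was detected in control cells only.

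**Figure D2:**
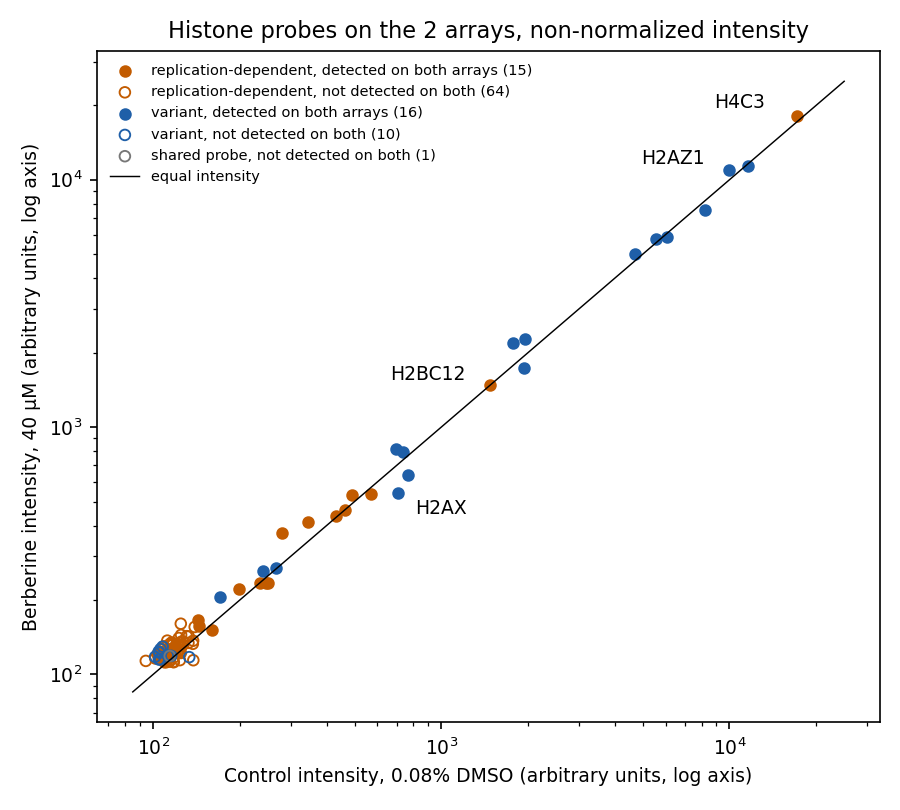
Non-normalized intensity (arbitrary units, log axes) of each of the 106 histone probes on the control array (horizontal) and the berberine array (vertical), coloured by class, filled when detected on both arrays. Open symbols gather between 94.3 and 160 units on both arrays, and the filled ones lie close to the line of equal intensity.

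No measured histone gene differed by over 1.5-fold, the fold threshold of the study. In the background-corrected values, which are used below unless the deposited values are named, 0 of 24 were higher and 0 lower. Among all 9128 measured genes 3.87% were over 1.5-fold higher and 4.09% lower, so a count of 0 among 24 is near the background and is no result about the histone genes. The deposited normalized intensity also gave 0 and 0, against 1.44% and 1.01% of all genes. The log2 differences, berberine minus control, ran from -0.56 to 0.49 with a median of -0.08, and 10 were above and 14 below 0. Over all measured genes they ran from -2.26 to 4.55 with a median of -0.01. As a partial measure of error, the SD of a single probe, estimated from pairs of probes of the same gene, was 0.25 on the log2 scale (2193 genes), 0.29 for dimmer and 0.19 for brighter pairs. It leaves out the spread between cultures, for which these arrays give no value.

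The classes had like medians, -0.09 for the 13 replication-dependent and -0.07 for the 11 variant genes (-0.08 without the pseudogene H3P6). In the deposited values both were -0.07. The spread over the 24 genes (SD 0.27) was near the single-probe error and below that of all measured genes (SD 0.35). Above a control intensity of 500 the SD was 0.21 for 13 histone genes and 0.28 for 3919 genes, and up to 500 it was 0.31 for 11 and 0.39 for 5209.

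**Figure D3:**
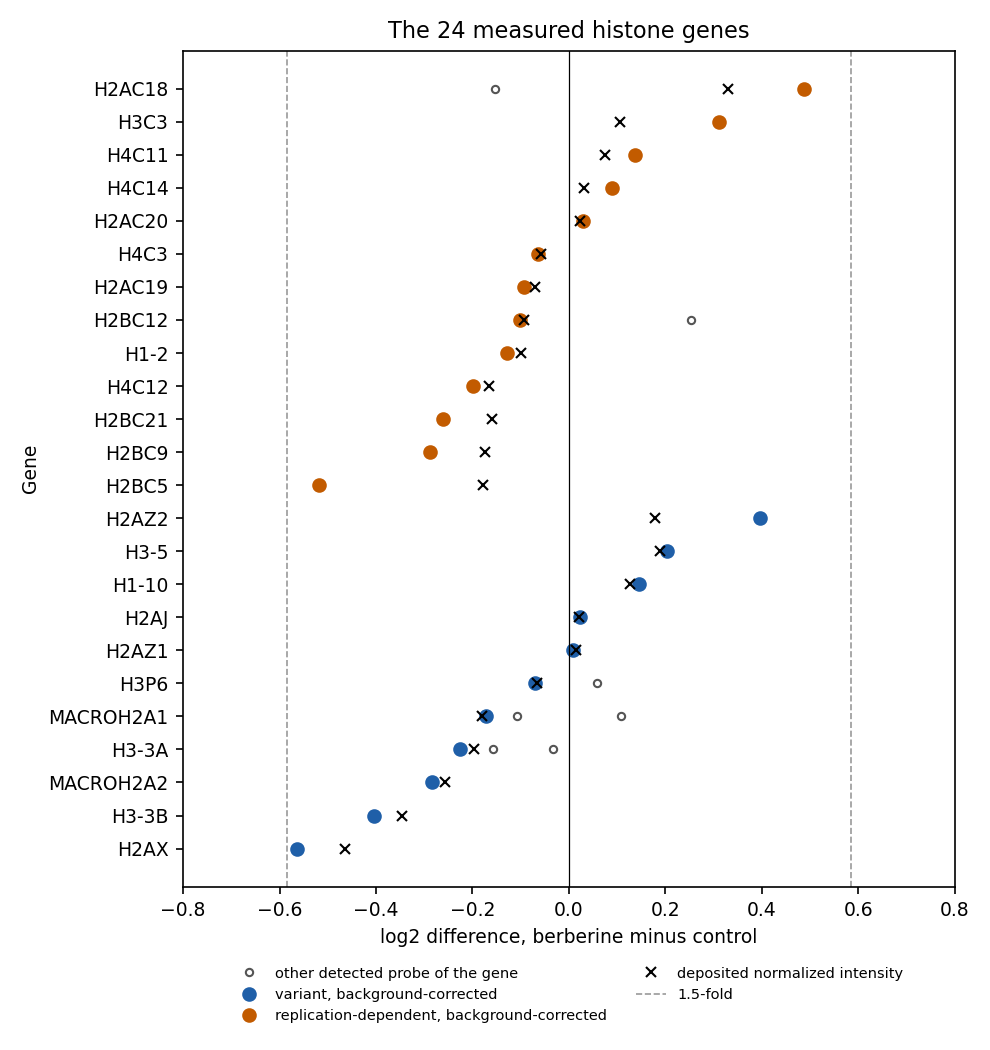
The log2 difference, berberine minus control (horizontal axis), of each of the 24 measured histone genes (vertical axis), by the background-corrected value of its brightest detected probe (filled), by other detected probes of the gene (open) and by the deposited normalized intensity of the brightest probe (crosses). All filled points lie between -0.56 and 0.49, inside the dashed lines at 1.5-fold.

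Among replication-dependent genes, all 4 measured H2B genes were below 0, with a median of -0.27. The H2BC5 probe read 161 units in control and 152 after berberine treatment, a log2 difference of -0.52 (1.43-fold lower). This value rests on 1 of its 3 probes and lies at the detection limit, with a detection p of 0.00909 on the berberine array, and in the deposited values it was -0.18 (1.13-fold lower). H2BC9 went from 250 to 235 units, with -0.29 on the log2 scale and -0.17 in the deposited values. H2BC21, the divergent neighbour of H2AC20, went from 247 to 235 units, with -0.26 and -0.16. Both were close to the single-probe SD of dimmer pairs (0.29). H2BC12, a cluster gene with a polyadenylated form, went from 1474 to 1486 units at its brighter probe, a difference of -0.10. Its second probe went from 344 to 414 units, with 0.25, so that its 2 probes disagreed in direction. With H2BC12 read from that second probe, the 4 H2B genes did not all lie on the same side.

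The 3 measured H2A genes of this class lie near each other on chromosome 1. H2AC18 had 281 units in control and 374 in berberine-treated cells at its brighter probe, which is 0.49 on the log2 scale (1.40-fold higher) and 0.33 with the deposited values. It was the highest difference among the histone genes, and 502 of the 9128 genes had a higher one. The second H2AC18 probe went the other way, with 235 and 234 units and a difference of -0.15. H2AC19, a near-identical copy of H2AC18, went from 431 to 438 units, with -0.09. The transcripts behind these 3 probes are uncertain because of the near identity, and they did not share a direction. H2AC20 went from 489 to 529 units, with a difference of 0.03, while H2BC21, with which it shares a promoter region, had -0.26. The gap between the members of this pair is close to the single-probe error.

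H4 genes, which encode the core histone partner of H3, had small differences. The H4C3 probe had 17190 units in control and 18023 in berberine-treated cells, a difference of -0.06. Scaled to the array median without quantile normalization it was 0.01, so its sign depended on the scaling. H4C12 went from 572 to 538 units, with -0.20, and H4C11 from 199 to 221 units, with 0.14. H4C14, of which H4C15 is a near-identical copy, went from 144 to 157 units near the detection limit, with 0.09. These 4 genes thus lay on both sides of 0, with a median of 0.01.

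H3C3 was the single measured H3 gene of the clusters, at 143 units in control and 166 in berberine-treated cells. This is 0.31 on the log2 scale, against 0.11 in the deposited values, where the background is kept. The 3 H3C13 probes, and those of H3C14 and H3C15, were not detected on either array. H1-2, the single measured linker histone of the clusters, had 464 and 462 units and a difference of -0.13.

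Among the variants, H2AX had the lowest difference. H2AX is the H2A form whose C-terminal tail is phosphorylated around DNA double-strand breaks. Its probe had 708 units in control and 542 in berberine-treated cells, or -0.56 on the log2 scale (1.48-fold lower), just within the 1.5-fold limit. The deposited values gave -0.46 (1.38-fold lower). Of the 9128 genes, 412 had a lower value. It has 1 probe on the array. The difference is larger than the single-probe SD of 0.25. H2AX is named here as the lowest of the measured histone genes, so that SD is a lenient measure for it. The SD also says nothing of the spread between cultures.

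The other H2A variants went both ways. H2AZ1 and H2AZ2 encode near-identical forms of H2A.Z, which is placed around transcription start sites. H2AZ1 went from 9953 to 10966 units, with a difference of 0.01, and H2AZ2 from 170 to 205 units, with 0.40 (1.32-fold higher). The H2AZ2 value was 0.18 in the deposited values, and 752 genes had a higher difference. MACROH2A1 and MACROH2A2 encode macroH2A, a form with a large extra domain that is enriched on silenced chromatin. MACROH2A2 went from 1939 to 1734 units, with -0.28. The brightest MACROH2A1 probe went from 11559 to 11378 units, with -0.17. Its other detected probes gave 0.11 (1952 and 2260 units) and -0.11 (266 and 269 units), so its probes did not share a direction. H2AJ, a variant close to canonical H2A, went from 735 to 795 units, with 0.02.

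H3.3, the replacement form of H3, is encoded by H3-3A and H3-3B. H3-3B went from 768 to 641 units, or -0.40 on the log2 scale (1.32-fold lower), and the deposited values gave -0.35. Of all genes, 913 had a lower difference. H3-3A went from 8191 to 7540 units at its brightest probe, with -0.23. Its other probes gave -0.16 (6065 and 5864 units) and -0.03 (4691 and 4992 units). All 4 detected H3.3 probes were thus below 0 after normalization. Those of H3-3A were within the single-probe SD over all pairs (0.25), but the brightest was beyond that of brighter pairs (0.19). The H3-3A probe with -0.03 was close to 0, and its non-normalized intensity was higher after berberine treatment.

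Retrocopies of these genes were read by separate probes. H3-5, a retrocopy of H3-3B, went from 1769 to 2184 units, with 0.20, and its second probe was not detected. H3P6, a pseudogene copied from H3-3A, went from 5557 to 5753 units, with -0.07, and its other probe from 241 to 262 units, with 0.06. Such copies are near-identical to their parents, so a probe may also have read the parent transcript. H1-10, a linker histone variant, went from 698 to 813 units, with 0.15.

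**Figure D4:**
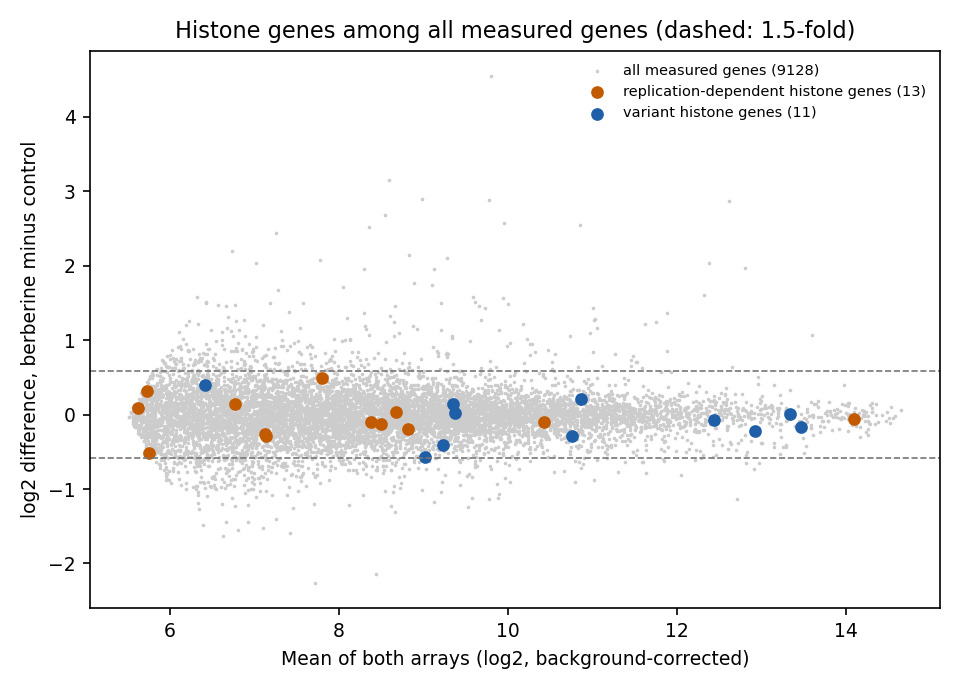
The log2 difference, berberine minus control (vertical axis), against the mean of both arrays (log2, horizontal axis) for the 9128 measured genes in grey and the measured histone genes in colour. The histone genes lie within the grey cloud at every level, between -0.56 and 0.49.

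Genes that act on histone mRNA and protein were read from lists of their known members. Of the genes listed for histone gene transcription, 9 of 11 were measured, 0 were over 1.5-fold in either direction, and the median was 0.10. Most are transcription factors, but the kinase CDK2 is among them and is in the S phase list as well. HINFP, which binds H4 promoters, went from 197 to 260 units, with 0.58 (1.49-fold higher), 0.40 at its second probe and 0.32 in the deposited values. NFYA, a subunit of NF-Y, had -0.43 (-0.23 in the deposited values), and the TBP relative TBPL1 had 0.31. NPAT, the coactivator of histone gene clusters at the start of S phase, had -0.21 (-0.08 in the deposited values). Its probe read 161 units in control and 163 after berberine treatment, near the detection limit. A list of 26 genes was read for histone 3′ end processing, the step that cuts the pre-mRNA behind the stem-loop. Not all of them take part in the cut itself, and NPAT is in this list as well. Of the 26, 21 were measured, 0 passed 1.5-fold, and the median was -0.01. SLBP, which binds the stem-loop, went from 1008 to 1074 units, with -0.01 and -0.11 at its second probe. NCBP2, of the cap-binding complex, had -0.56 but 0.11 at its second probe. SYMPK, a scaffold of the cleavage complex, had -0.53 (-0.22 in the deposited values), ZNF473, a zinc finger protein of the U7 particle machinery, had 0.41 and 0.42 at its 2 probes, and CSTF2 had -0.26.

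A list of further cleavage and polyadenylation factors held 2 genes over 1.5-fold. Of 10 genes 9 were measured, 1 was higher and 1 lower (3.87% and 4.09% of all measured genes), and the median was -0.06. PCF11, which links cleavage to the end of transcription, went from 268 to 163 units, with -1.63 (-0.81 in the deposited values). The second reading lay near the lowest detected intensity of the berberine array (152), and the difference rests on 1 detected probe. WDR33, which reads the AAUAAA signal, went from 2259 to 3739 units, with 0.65 and 0.86 at its second probe. NUDT21 had 0.33 and PABPN1 had -0.18. Whether either bears on the histone values was not tested.

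Histone chaperones carry new histones to DNA. Of 31 chaperones and remodellers 23 were measured, 0 passed 1.5-fold, and 16 were below and 7 above 0, with a median of -0.10. Over all measured genes 4782 were below and 4338 above 0. The lowest were NAP1L4 (-0.39), which binds H2A and H2B, ASF1B (-0.36), which binds H3 and H4, NASP (-0.30), which also holds H3 and H4, and the remodeller EP400 (-0.30). Of 30 genes of S phase and DNA replication 26 were measured, 0 were higher and 2 lower over 1.5-fold, and the median was -0.04. Over all measured genes 4.09% were lower, so this count is near the background. These were the phosphatase CDC25A, from 663 to 443 units with -0.83, and the transcription factor E2F1, from 236 to 200 units with -0.60. In the deposited values CDC25A had -0.66 and E2F1 -0.32, so that 1 of the 2 passed. E2F2 had -0.57, and FEN1, a nuclease that trims Okazaki fragments, had -0.50 and -0.82 at its 2 probes. The sliding clamp PCNA, chosen after its values were seen, had 0.08 and 0.47 at its 2 probes, and TYMS, which makes thymidylate, chosen likewise, had 0.28. The share of cells in S phase was not measured.

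**Figure D5:**
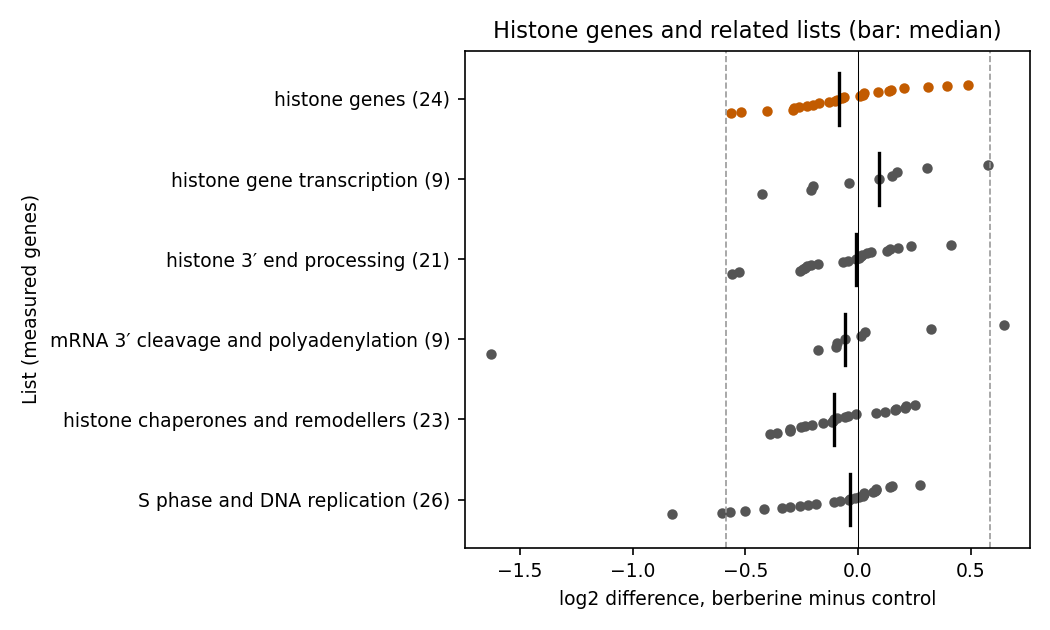
The log2 difference, berberine minus control (horizontal axis), of each measured histone gene and of each measured gene of 5 related lists (vertical axis, with the number of genes), points spread vertically for legibility, with a bar at each median and dashed lines at 1.5-fold. The medians lie between -0.10 and 0.10, and PCF11 at -1.63 stands apart.

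On the arrays as a whole, 32.5% of probes were detected in control and 32.6% in berberine-treated cells, with median intensities of 120.6 and 130.1. All 13 hepatocyte markers with a probe were measured, with a median difference of -0.04 and 0 over 1.5-fold. Of 8 fibroblast genes 0 were detected, of 6 endothelial markers ESAM alone was measured (0.87, from 144 to 195 units, and 0.34 in the deposited values). Of 7 immune markers with a probe 4 were measured, all above 0 with a median of 0.29. They were AIF1 (0.45, and 0.16 in the deposited values), CD68 (0.30, and -0.45 at its second probe), LYZ (0.29, from 5211 to 6808 units) and FCGR3A (0.06), while the defining PTPRC was detected on neither array. Their part in the histone values was not tested.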

How the data were processed

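The authors deposited 2 tables of the same 2 arrays. The first holds probe intensity that was neither background-corrected nor normalized, and beside it the detection p-value that GenomeStudio gives each probe, as deposited. The other, which the authors deposited as normalized intensity on a linear scale, keeps the background, and how it was normalized is not given in the sources used here. GenomeStudio is named in the submitters' processing notes. RNA came from a Roche kit per the labels and from TRIZOL per the study's methods.

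The first table was processed with neqc of limma 3.58.1 (R 4.3.3), which takes the background from the detection p-values, adds an offset of 16, makes the 2 distributions equal and works in log2 units. Values of dim probes are uncertain because both background and offset weigh on them. Platform symbols were updated through RefSeq (GRCh38.p14), and 17110 probes without a symbol and 8 with several were left out, except that 1 probe shared by H3C11 and H3C6 was kept in the count of histone probes. Each gene was represented by its brightest detected probe. A bound for a gene detected on 1 array was taken against the lowest signal among detected probes of the other array or the dim probe's own, whichever was higher. With 1 array per group no test was run, and the number of arrays limits the precision. Promoter motifs were counted on both strands of the first RefSeq window per gene.

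Genes named are all measured histone genes, those detected on 1 array, and up to 4 per list with the largest absolute difference or over 1.5-fold. The histone genes and the lists were chosen with earlier results of these data known. SLBP was named after its values were seen, as the factor that defines its list. The steps were tested on simulated data with known differences larger than any among the measured histone genes. Such a run says nothing of how reliable differences of the size seen here are. Alternatives covered the deposited values, the offset (50), median scaling, the detection limit (0.05 on both arrays, 0.01 on at least 1, none), the brighter genes and the mean or count of all detected probes. Further steps used Python 3.11.15 with pandas 2.3.3, numpy 2.4.6 and matplotlib 3.10.9.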

Additional observations from a re-analysis of the deposited data

How the results depend on the processing

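All 9 alternatives were planned. The number of histone genes over 1.5-fold higher was 0, and 1 (H2BC11) when detection on at least 1 array sufficed or with no filter on the detection p. The number lower was 0, and 2 (H1-7 and H2AC8, detected on neither array) with no filter, where values lie in the background. The other alternatives gave 0 in both directions. The median of the replication-dependent genes ranged from -0.10 to -0.03 and that of the variants from -0.12 to 0.02, which is above 0 with no filter alone. Settings that change only which genes are kept leave the value of a measured gene as it is by construction, so they say nothing of its stability. Of the 24 values recomputed with each of the deposited values, an offset of 50 and median scaling, H2BC5 in the deposited values (-0.18) alone moved by over the single-probe SD. Of the genes with more than 1 detected probe, H2AC18 did as the mean of its probes (0.17). The sign differed from the main value for H2BC12 as the mean of its probes (0.08) and for H4C3 with median scaling (0.01). Over all genes, 353 higher and 373 lower became 131 and 92 in the deposited values, 213 and 218 with an offset of 50, 533 and 544 with detection on 1 array, 671 and 671 with no filter, and 114 and 104 in the brighter genes. No paired analysis was possible because each group has 1 array. Dim probes limit the histone values, since 62 of 88 genes were not above background on either array.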
